A study of Mus musculus with 42 samples.

Results

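The genes of MHC class II antigen presentation were followed through lung, liver and forestomach of mice that received the polycyclic aromatic hydrocarbon benzo(k)fluoranthene (BkF). The set holds 9 genes, Cd74, H2-Aa, H2-Ab1, H2-Eb1, H2-DMa, H2-DMb1, H2-Oa, H2-Ob and Ciita, out of 20018 genes with a named probe, and they are read by 11 of 55681 probes. Probes were taken by gene symbol, and H2-Ab1 and H2-Ob have 2 probes each. The set was chosen by a measured value, the higher level of Cd74 in high-dose liver, so the contrast of high-dose with vehicle liver is described here by its values, with no p-value, and nothing is read from the number of calls in it. The question was whether the other class II genes differed along with Cd74, at other doses and in other tissues.

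The animals were adult male Muta™Mouse of about 11 weeks, a transgenic strain used for mutation assays, and every group was dosed by oral gavage on 28 consecutive days with tissues taken 72 hours after the last dose. The vehicle group (D0) received olive oil alone, and the low (D1), medium (D2) and high (D3) dose groups received BkF in olive oil, at 25 mg/kg-bw/day in D1, 50 in D2 and 100 in D3. The 42 arrays came from 15 mice, with 4, 3, 4 and 4 lungs, 4, 2, 3 and 4 livers and 4, 3, 4 and 3 forestomachs in D0, D1, D2 and D3. Each array carried tissue RNA in red (Cy5) and a universal mouse reference RNA from cell lines in green (Cy3), so a value is log2(sample / reference) after loess within the array, and a change is a difference of group means from D0. Calls required both a limma p-value of at most 0.05, adjusted by Benjamini-Hochberg over all probes tested in the tissue, and a 1.5-fold difference.

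MHC class II molecules are surface proteins that present peptides from taken-up material to CD4+ T cells, and they are known mainly from dendritic cells, macrophages and B cells. The alpha and beta chains (H2-Aa with H2-Ab1, and H2-Eb1) are held by the invariant chain Cd74 until H2-DM loads a peptide, and H2-O restrains H2-DM. The transactivator Ciita binds no DNA itself and acts through factors seated on short boxes in front of the class II genes. In liver these genes are known from resident macrophages and dendritic cells rather than hepatocytes.

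The gene structure shared by several members is shown because the rule used only symbols and expression. In RefSeq promoters (GRCm38.p6, 250 bases before to 50 after the gene start), 6 members have an entry and Cd74, Ciita and H2-Ab1 have none. The letters GNAAC followed by ATTGG on the strand of the gene, 25 to 40 bases apart from start to start, were found in 5 of these 6 members, and H2-DMa has them in neither of its 2 promoters. The pair stood in 436 of 32851 promoters of the same length (1.33%, or 2.67% on either strand), and it was chosen after these promoters had been seen. The stretches below run 5′ to 3′ on the strand of the gene, with both motifs in capitals. They lie at chr17:34287864-34287907 on the minus strand (H2-Aa) and, on the plus strand, at chr17:34305773-34305815 (H2-Eb1), chr17:34153094-34153137 (H2-DMb1), chr17:34092300-34092343 (H2-Oa) and chr17:34238815-34238855 (H2-Ob).
H2-Aa: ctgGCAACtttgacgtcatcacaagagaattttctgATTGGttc
H2-Eb1: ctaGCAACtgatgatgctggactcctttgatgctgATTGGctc
H2-DMb1: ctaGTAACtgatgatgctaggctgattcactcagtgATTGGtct
H2-Oa: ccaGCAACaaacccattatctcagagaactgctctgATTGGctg
H2-Ob: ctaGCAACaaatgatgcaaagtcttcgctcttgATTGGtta
The distance between the motifs was 33 bases in H2-Aa, H2-DMb1 and H2-Oa, 32 in H2-Eb1 and 30 in H2-Ob, and the first motif began between 94 and 76 bases before the gene start. A match of letters is a description and no measured site, and the reference sequence is not that of the strain used.

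Tissue labels were borne out by their markers: the mean log2 ratio of hepatocyte markers was 7.40 to 8.08 on liver arrays, and that of lung epithelium markers was 5.70 to 6.81 on lung arrays. Forestomach arrays also carried glandular stomach markers, at 4.96 to 6.41 on 9 arrays and 0.79 to 2.41 on the other 5. The arrays with high glandular markers were 2 of 4 in D0, 3 of 3 in D1, 3 of 4 in D2 and 1 of 3 in D3. Hepatocyte markers stood at 2.79 to 4.72 on 8 of these 9 and at 0.23 to 1.03 on the other 6 forestomach arrays. The D2 lung array of mouse 12 stood apart with skeletal muscle markers at 4.76, against −1.58 to −0.56 on the other lung arrays. Its macrophage markers were at 4.61 (1.19 to 2.48 on the others), its pan-leukocyte markers at 1.18 (at most 0.56) and its forestomach epithelium markers at 2.58 (at most −0.23). The D1 lung array of mouse 7 had glandular stomach markers at 4.43, and the D3 liver array of mouse 17 stood apart with skeletal muscle markers at 2.98, against −2.23 to −1.52. The 10 spike-in controls shifted by −0.73 to −0.52 in D3 liver, −0.88 to −0.57 in D2 liver and 0.27 to 0.49 in D3 lung. The place of an array on its slide followed dose, exactly so in lung, so position and dose cannot be told apart.

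In high-dose liver the genes of the peptide-binding chains, the invariant chain and H2-DM were all higher than in vehicle liver. The values of H2-O and Ciita overlapped with it, by the probe used for each gene. Cd74, the invariant chain, had log2 ratios of −0.58, −0.67, −0.94 and −0.94 in vehicle livers (mice 1 to 4) and 0.78, 1.42, 0.90 and 1.53 in high-dose livers (mice 16, 17, 19 and 20). No high-dose liver came near the vehicle range, and the change was 1.94 (SE 0.30), or 3.84-fold. H2-Aa, the alpha chain of H2-A, ran 2.17, 2.39, 2.05 and 1.89 in vehicle and 3.83, 4.49, 3.40 and 4.44 in high-dose livers. Its change of 1.91 (SE 0.38), or 3.77-fold, was close to that of Cd74.

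H2-Ab1, the beta chain paired with H2-Aa, ran 3.59, 3.40, 3.25 and 3.25 in vehicle and 4.19, 4.62, 4.52 and 4.56 in high-dose livers. H2-Eb1, the beta chain of H2-E, ran 2.53, 2.47, 2.38 and 2.23 in vehicle and 3.13, 3.63, 3.56 and 3.62 in high-dose livers. Both beta chains were above the vehicle range on every high-dose array, by 1.10 (SE 0.20, 2.14-fold) and 1.08 (SE 0.23, 2.12-fold), and the other H2-Ab1 probe gave 1.33. H2-DMb1, the beta chain of the peptide loader, ran 0.20, −0.21, −0.04 and 0.07 in vehicle and 1.03, 1.61, 1.36 and 1.49 in high-dose livers. That is a change of 1.37 (SE 0.27), or 2.59-fold. H2-DMa, its alpha chain, ran −0.71, −0.77, −0.69 and −0.92 in vehicle and −0.42, 0.13, 0.02 and 0.04 in high-dose livers, a change of 0.72 (SE 0.26), or 1.64-fold.

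All 4 high-dose livers were therefore above all 4 vehicle livers for 6 members, which 2.95% of all liver probes were as well. limma called 1 member in this contrast, Cd74, where it called 0.0525% of probes, and no more is read from that count because Cd74 chose the set. The call was lost without any 1 of the 8 arrays compared, with the slide as a block, with the scanner's log ratio and in the sample channel alone, while the change of Cd74 was 1.82 to 2.07 without single arrays. Over the 9 members the median change was 1.08, against 0.00 over all liver probes.

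**Figure D1:**
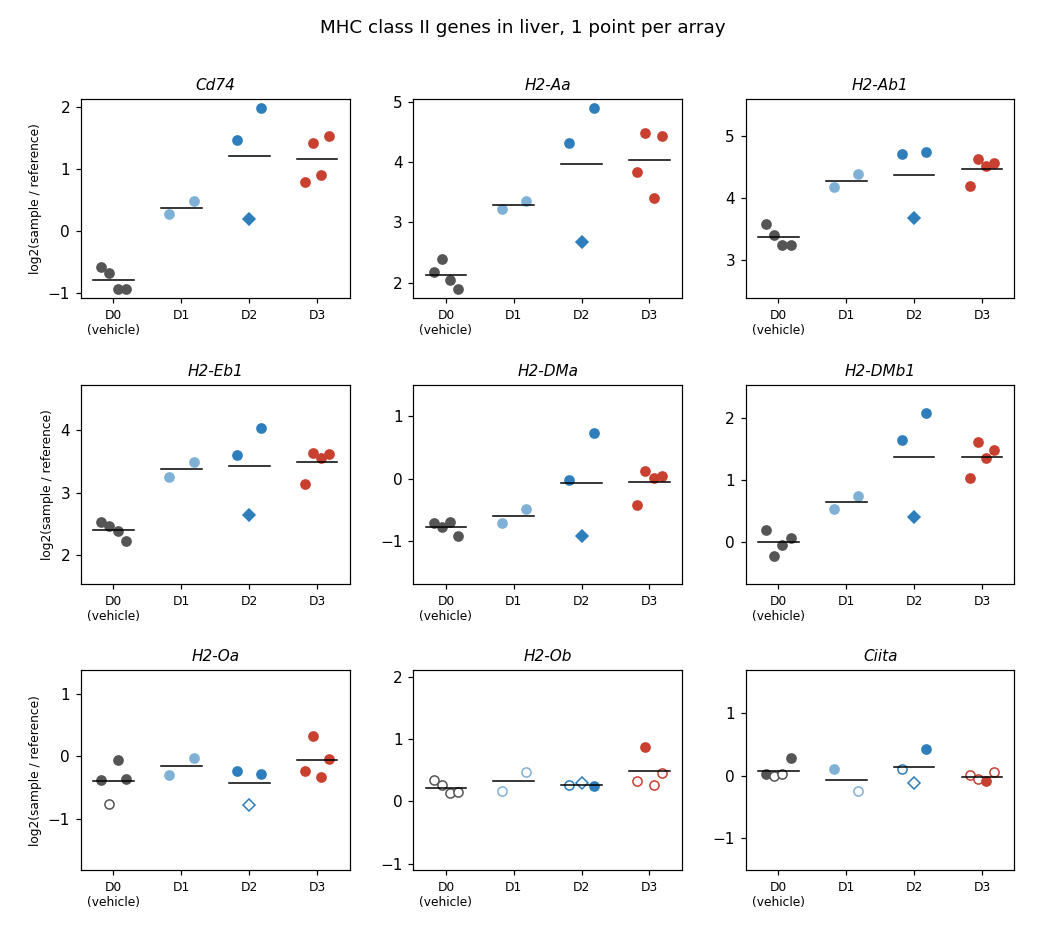
Log2(sample / reference) of the class II genes on each liver array (y axis) by dose group (x axis), 1 point per array, with lines at group means, open points where the sample channel was not well above background and a diamond for mouse 12. Cd74 lies between −0.94 and −0.58 in D0 and between 0.78 and 1.53 in D3, and mouse 12 lies lowest of the D2 arrays for 8 of 9 genes.

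By the probe used for each gene, the members that did not separate from vehicle liver were the H2-O chains and Ciita. H2-Oa ran −0.38, −0.77, −0.06 and −0.36 in vehicle and −0.23, 0.33, −0.33 and −0.04 in high-dose livers, so the groups overlapped, and the difference of means was 0.32. The differences depend on the ratio: the log ratio of the scanner software gave 1.35 for H2-Oa, 1.69 for H2-Ob and −0.53 for Ciita. It also gave smaller values for the beta chains, 0.72 for H2-Ab1 and 0.78 for H2-Eb1, and 1.01 for H2-DMa, beside 1.95 for Cd74, 1.81 for H2-Aa and 1.55 for H2-DMb1. Ciita ran 0.03, −0.01, 0.02 and 0.28 in vehicle and 0.01, −0.06, −0.09 and 0.05 in high-dose livers, a difference of −0.10. It was well above background on only 5 of 13 liver arrays, so a lower level of Ciita would not have been seen. H2-Ob was well above background on 2 of 13 liver arrays and on none of the vehicle livers. Only 1 of the 4 high-dose livers was well above background for it, so both groups lay near the floor and no fold is given. The other H2-Ob probe was well above background on no liver array and was not tested. It ran from −0.19 to 0.20 in vehicle and from 0.27 to 0.60 in high-dose livers.

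At the low dose, with 2 livers, no member passed the test. Cd74 stood at 0.27 and 0.48 in mice 8 and 9, which is 1.16 (SE 0.37) over vehicle. H2-Aa stood at 3.22 and 3.36, or 1.16 (SE 0.46) higher, and H2-Ab1 and H2-Eb1 stood 0.91 (SE 0.25) and 0.97 (SE 0.28) higher. H2-DMb1, at 0.54 and 0.75, was 0.64 (SE 0.33) higher, while H2-DMa, at −0.71 and −0.49, overlapped with vehicle. Both low-dose livers were above all vehicle livers for 5 of 9 members, where 6.11% of all probes were. In limma the adjusted p was 1 for each of the 9 members and 0% of probes were called, while 468 of them had an unadjusted p under 0.05. The median change of the members was 0.64, against 0.00 over all probes. The low, medium and high doses share their 4 vehicle livers, so these differences are not independent of each other or of the contrast that chose the set.

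At the medium dose the 3 livers spread widely, and 1 of them decided the calls. Cd74 stood at 1.47 in mouse 11, 0.19 in mouse 12 and 1.98 in mouse 13, which is 2.00 (SE 0.32) over vehicle, or 4.00-fold. limma's adjusted p for it was 0.056, with a range of 0.0021 to 0.22 over the alternative settings. H2-Aa, at 4.32, 2.68 and 4.90, was 1.84 (SE 0.41) higher, and H2-DMb1, at 1.64, 0.40 and 2.07, was 1.36 (SE 0.29) higher. Their adjusted p-values in limma were 0.18 and 0.17. The beta chains H2-Ab1 (4.70, 3.68 and 4.73) and H2-Eb1 (3.60, 2.64 and 4.03) were 1.00 (SE 0.22) and 1.02 (SE 0.25) higher, with adjusted p-values of 0.17 and 0.21. H2-DMa, at −0.02, −0.91 and 0.74, overlapped with vehicle at a mean change of 0.71 (SE 0.28).

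All 3 medium-dose livers were above all vehicle livers for 5 members, where 4.51% of all probes were, although the other H2-Ab1 probe overlapped. limma called 0 members, 0.0427% of probes, and the median change was 1.00 against −0.01 over all probes. Without mouse 12, limma called 5 members. The share of all probes called in that fit was not computed, so nothing is read from this count. Cd74 was then 2.51 higher (adjusted p = 0.0021), H2-Aa 2.49 (0.0041), H2-DMb1 1.85 (0.0027), H2-Eb1 1.41 (0.0062) and H2-Ab1 1.34 (0.0041), and H2-DMa was 1.13 higher with an adjusted p of 0.078. Mouse 12 was lowest among the medium-dose livers for 8 of 9 members, among the lungs for 9 of 9 and among the forestomachs for 6 of 9. Why that animal was low was not tested.

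Liver arrays lay on 2 slides, each with arrays of all 4 groups, and the high-dose differences were present on each. On the 2 slides Cd74 was 1.72 and 2.16 above vehicle, H2-Aa 1.88 and 1.95, H2-DMb1 1.33 and 1.41, H2-Ab1 0.91 and 1.29, H2-Eb1 0.88 and 1.29 and H2-DMa 0.60 and 0.84. At the medium dose Cd74 was 1.46 above vehicle on the slide that held mouse 12 and 2.92 on the other, where 1 medium-dose liver lay.

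The reference RNA was the same on every array, yet its channel moved with the sample channel for both class II beta chains. In the reference channel H2-Ab1 stood at 7.71, 7.65, 7.56 and 7.56 (log2 signal) on the vehicle liver arrays and at 8.42, 8.74, 8.35 and 8.68 on the high-dose liver arrays. That difference of 0.93 was matched or exceeded by 0.0362% of liver probes. H2-Eb1 stood at 7.86, 7.76, 7.85 and 7.76 and then at 8.78, 8.93, 8.66 and 8.98, a difference of 1.03, matched or exceeded by 0.0263% of probes. The reference channel of Cd74 (−0.09), H2-Aa (0.04), H2-DMa (−0.02) and H2-DMb1 (−0.03) stayed within 0.09 of the vehicle arrays. For H2-Aa this is a floor, since its reference signal was well above background on 0 of 13 liver and 0 of 14 forestomach arrays, so its ratios there, and the folds made from them, divide by a signal at background. In medium-dose liver the reference channel was 0.86 higher for H2-Ab1 and 0.88 for H2-Eb1, and in low-dose liver 0.48 for each.

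A ratio divides by the reference, so for both beta chains it gave a smaller difference than the sample channel alone. In the sample channel of high-dose liver H2-Ab1 was 2.03 higher (4.07-fold) and H2-Eb1 2.11 (4.32-fold), beside 1.85 (3.62-fold) for Cd74, 1.95 (3.87-fold) for H2-Aa, 1.34 (2.54-fold) for H2-DMb1 and 0.70 (1.62-fold) for H2-DMa. On this scale Cd74 and the 3 chain genes lay between 3.62-fold and 4.32-fold. The sample channel alone carries the differences in labelling and hybridisation between arrays that a ratio removes. The source of the reference signal was not tested, and without a dye swap it cannot be told apart from a property of the dyes.

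**Figure D2:**
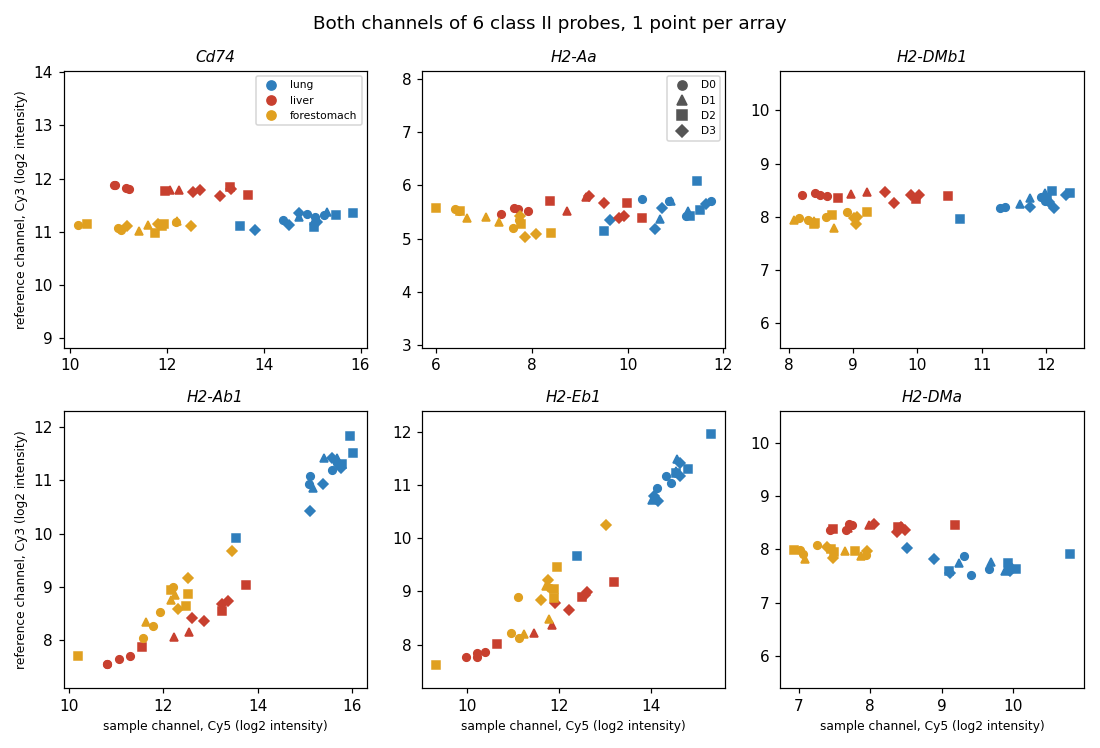
Reference-channel log2 intensity (y axis) against sample-channel log2 intensity (x axis) of 6 class II genes on each array, coloured by tissue, with circles for D0, triangles for D1, squares for D2 and diamonds for D3. The liver points of H2-Ab1 and H2-Eb1 run to the upper right, from reference means of 7.62 and 7.81 in D0 to 8.55 and 8.84 in D3, whereas those of Cd74 run sideways.

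Lung, the tissue with the highest class II levels in vehicle mice, gave no called member at any dose. Cd74 ran 3.93, 3.56, 3.80 and 3.18 in vehicle lungs and 3.40, 3.35, 3.91 and 2.79 in high-dose lungs (mice 16, 17, 19 and 20), so the groups overlapped, with a change of −0.25 (SE 0.36). H2-Aa ran 5.80, 5.16, 6.04 and 4.55 in vehicle and 5.38, 5.15, 5.98 and 4.28 in high-dose lungs, a change of −0.19 (SE 0.41). Mouse 20 lay below every vehicle lung for both genes, and the other 3 high-dose lungs lay within the vehicle range. H2-Oa, the alpha chain of H2-O, had the highest change, 0.72 (SE 0.36), and H2-DMa the lowest, −0.53 (SE 0.36), and both overlapped with vehicle. Each of the 4 lung slides held 1 vehicle and 1 high-dose array. By slide H2-Oa differed from vehicle by 0.18, 1.45, 0.57 and 0.67, and H2-DMa by −0.95, −0.34, −0.93 and 0.10. Over the 9 members the high-dose median was 0.17, the lowest adjusted p in limma was 0.65, and 0.0336% of all lung probes were called. The same share, 0.0336%, was called for a linear trend with dose, where members gave −0.51 to 0.65 at the highest dose and a lowest adjusted p of 0.58. Medium-dose lungs gave changes of −0.05 to 0.72 with 0.0153% of probes called, and low-dose lungs −0.05 to 0.31 with 0% called (577 reached an unadjusted p under 0.05). The medium-dose maximum was Ciita, at 1.89 in mouse 11, 0.52 in mouse 12, 3.01 in mouse 13 and 1.80 in mouse 15, against 0.70 to 1.31 in vehicle lungs. Without mouse 12, whose lung carried the muscle markers, the medium-dose changes were 0.12 to 1.14: Cd74 went from 0.14 to 0.59 (SE 0.24), H2-Ab1 from −0.05 to 0.14 (SE 0.15) and Ciita from 0.72 to 1.14 (SE 0.28). None of the 9 was called then either, with a lowest adjusted p of 0.46 in limma, that of Ciita.

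In forestomach 6 members were tested, since H2-Oa, H2-Ob and Ciita were not well above background on any array. Cd74 ran 1.01, −0.96, −0.09 and 0.02 in vehicle forestomachs (mice 1 to 4) and 0.07, 0.67 and 1.40 in high-dose forestomachs (mice 16, 17 and 20), a change of 0.72 (SE 0.48) with overlap. H2-Aa ran 0.97, 2.39, 2.37 and 0.84 in vehicle and 2.99, 2.82 and 2.34 in high-dose forestomachs, a change of 1.07 (SE 0.61), again with overlap. These values divide by glandular markers: among arrays low in them H2-Aa was 0.90 in vehicle (mice 1 and 4) and 2.66 at the high dose (mice 16 and 20), a difference of 1.76, and among arrays high in them 2.38 (mice 2 and 3) and 2.82 (mouse 17), a difference of 0.44. For Cd74 the same differences were 0.22 and 1.20. Hepatocyte markers moved with these arrays too, at 0.23 to 4.55 in vehicle and 0.52 to 3.07 in high-dose forestomachs, with a median change of −0.88 (0 of 4 higher), and the part of either list in the class II values was not tested. At the high dose macrophage markers were higher for 9 of 9 (median 0.28). MHC class I genes were higher for 11 of 11 and interferon gamma response genes for 10 of 10 (medians of 0.44). T cell markers were higher for 0 of 6 and B cell markers for 1 of 3 (medians of −0.14). The part of these lists was not tested either. With the 2 clusters of glandular markers as a term in the fit the changes were 1.14 for H2-Aa and 0.62 for Cd74, with adjusted p-values of 0.99 in limma. H2-DMb1 was the only tested member whose high-dose arrays (1.07, 1.03 and 1.19) were all above vehicle (0.36, 0.81, 0.58 and 0.18), as 1.79% of all forestomach probes were. Its change was 0.62 (SE 0.21), or 1.53-fold, with an adjusted p of 1 in limma, and it was 0.86 among arrays low and 0.33 among arrays high in glandular markers. No forestomach contrast and no trend called a member, and 0% of probes were called in each, while an unadjusted p under 0.05 was reached by 3070, 1920 and 557 probes at the low, medium and high dose and by 712 for the trend. The changes lay between −0.04 and 0.65 at the low dose, −0.17 and 0.41 at the medium dose and 0.01 and 1.07 at the high dose. In the reference channel of high-dose forestomach H2-Ab1 was 0.69 and H2-Eb1 0.87 higher than in vehicle.

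**Figure D3:**
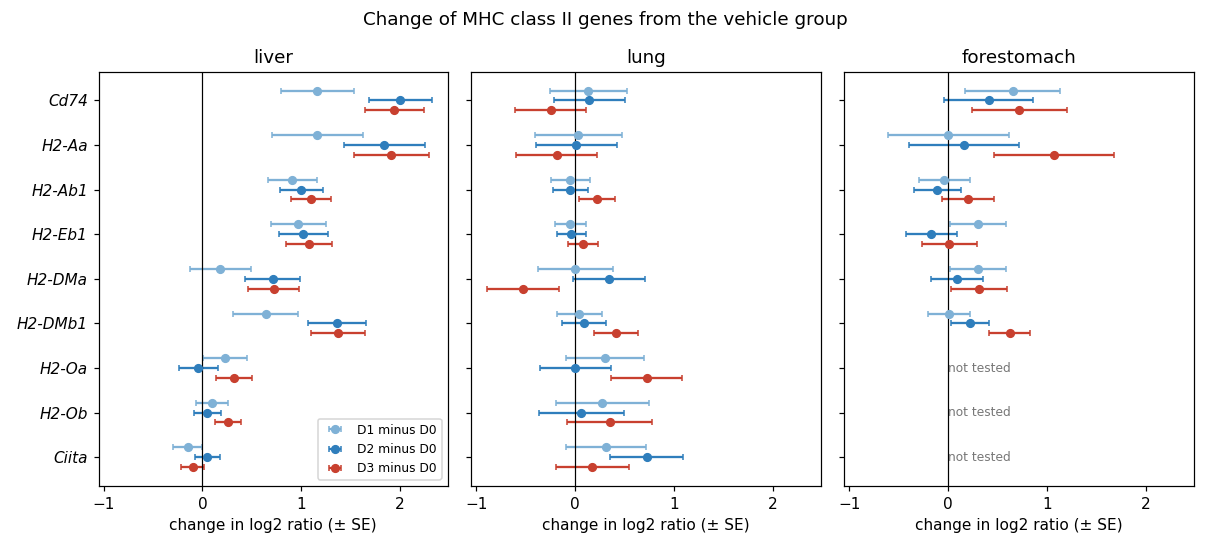
Change of each class II gene (rows) from vehicle in log2 ratio (x axis), as points with SE bars for D1, D2 and D3 in liver, lung and forestomach, with genes not tested in forestomach marked so. In liver Cd74 reaches 2.00 and 1.94 at D2 and D3, while high-dose lung changes lie between −0.53 and 0.72.

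Whether the medium-dose effect differed between tissues was tested in 1 fit over all arrays. For Cd74 the lung effect was 1.86 lower than the liver effect (change of −1.86, SE 0.59), with an adjusted p of 0.55 in limma, and members ranged from −1.86 to 0.66 with a lowest adjusted p of 0.39. Over the 6 members tested in forestomach, the liver effect minus the forestomach effect ranged from 0.62 to 1.68 (lowest adjusted p 0.17), and the lung effect minus the forestomach effect from −0.27 to 0.25 (lowest 0.97). No member was called in these contrasts, where 0.0239%, 0.0558% and 0.0292% of probes were. Without the liver of mouse 12, limma called H2-DMb1 in lung minus liver (−1.75, adjusted p = 0.012) and in liver minus forestomach (1.62, adjusted p = 0.041). That fit kept the lung and forestomach of the mouse, and the share of all probes it called was not computed. With all arrays of mouse 12 left out, lung minus liver was −1.50 (SE 0.27, adjusted p = 0.019 in limma) for H2-DMb1, −1.20 (SE 0.22, 0.024) for H2-Ab1 and −1.29 (SE 0.24, 0.025) for H2-Eb1, and these 3 members were called, as 0.0531% of probes were. The same 3 were called in liver minus forestomach (1.56, 1.18 and 1.31, adjusted p-values of 0.011 to 0.028, 0.0345% of probes), while Cd74 was not called in either (−1.92 and 1.70, adjusted p = 0.22 and 0.26). At the high dose, lung minus forestomach gave −1.26 to 0.06 over these 6, with an adjusted p of 1 for each and 0.0106% of probes called. The high-dose difference between liver and another tissue was not tested, because high-dose liver chose the set. The medium-dose contrasts with liver subtract the vehicle livers that entered that choice, so they are not independent of it. The fit without all arrays of mouse 12 was chosen after its low values had been seen.

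In vehicle mice the ratios of the class II genes were higher in lung than in liver, from 1.80-fold for H2-Ab1 to 21.1-fold for Cd74. Cd74 averaged 3.62 ± 0.33 (SD, n = 4) in lung, −0.78 ± 0.19 in liver and −0.01 ± 0.81 in forestomach. Lung exceeded liver by 4.40 (SE 0.40), or 21.1-fold, with an adjusted p of 1.5e-11 in limma. H2-Aa was 9.58-fold higher in lung (adjusted p = 6.9e-07), H2-DMb1 10.4-fold (3.1e-14), H2-DMa 6.40-fold (5.9e-09), H2-Oa 3.21-fold (2.4e-06) and Ciita 2.01-fold (1.2e-03). H2-Ob, which was above background in no vehicle liver, was at least 3.68-fold higher in lung (adjusted p = 2.3e-07). No liver array shared a slide with the other tissues, and the scanner software was 11.0.1.1 for liver and 10.7.3.1 for lung and forestomach. A difference of liver from another tissue therefore cannot be told apart from slide and software. The 4 vehicle livers also entered the contrast that chose the set, so lung against liver is not independent of the choice. On arrays that the choice did not use, Cd74 was 10.4-fold higher in lung than in liver at the low dose (3.37, SE 0.52, adjusted p = 1.5e-06) and 5.83-fold at the medium dose (2.54, SE 0.43, adjusted p = 6.8e-06). limma called 7 members at each of these doses, all but H2-Ab1 and H2-Eb1, where it called 37.1% and 38.7% of probes. For these 2 genes lung minus liver was −0.11 and −0.15 at the low dose and −0.19 and −0.20 at the medium dose.

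The beta chains differed least between lung and liver, at 1.80-fold for H2-Ab1 (adjusted p = 1.1e-03) and 1.82-fold for H2-Eb1 (1.5e-03). Their reference channel differed too: over all arrays it was 7.70-fold higher in lung than in liver for H2-Ab1 and 6.35-fold for H2-Eb1, differences that 0.656% and 0.816% of probes matched or exceeded. The median unnormalised green signal of H2-Ab1 was 4303 on lung, 331 on liver and 644 on forestomach arrays, whereas that of Cd74 was 4510, 4498 and 3516. In the sample channel alone, vehicle lung exceeded vehicle liver 20.7-fold for H2-Ab1, 17.7-fold for H2-Eb1, 14.4-fold for Cd74 and 10.3-fold for H2-Aa. Ciita was not called on that scale (0.18, adjusted p = 0.57). With the log ratio of the scanner software, H2-Aa (0.45), H2-Ab1 (0.30) and H2-Eb1 (0.18) were no longer called between lung and liver, nor H2-Aa (1.18) and H2-Ab1 between lung and forestomach, and the other 6 members were called in both. The share of all probes called with that ratio was not computed.

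All 9 members were called higher in lung than in liver, where 40.2% of all probes were called in either direction. Against forestomach, 8 of 9 were called higher in lung, where 29.9% of probes were called. Cd74 was 12.3-fold and H2-Aa 13.4-fold higher than in forestomach, with adjusted p-values of 4.2e-09 and 1.2e-07. H2-Oa, H2-Ob and Ciita, each above background in no vehicle forestomach, were at least 3.18-fold, 3.64-fold and 1.59-fold higher in lung. H2-Eb1 was the exception, at 1.49-fold (adjusted p = 0.038), and 8.58-fold (adjusted p = 3.8e-06) in the sample channel alone. Between liver and forestomach members differed by −0.78 to 0.48, the lowest adjusted p was 0.11 and none was called, where 33% of probes were.

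**Figure D4:**
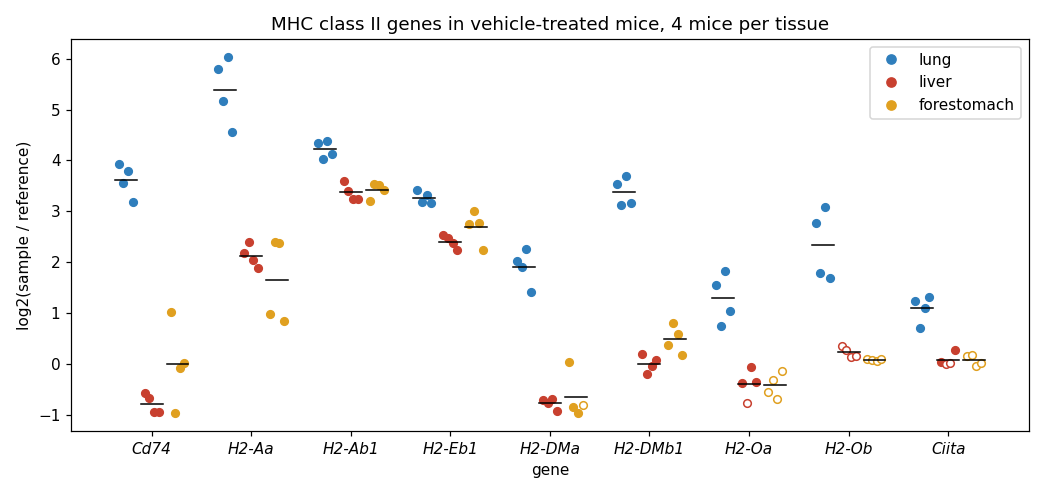
Log2(sample / reference) (y axis) of each class II gene (x axis) on the vehicle arrays of lung, liver and forestomach, 1 point per mouse, with lines at means and open points where the sample channel was not well above background. Cd74 averages 3.62 in lung, −0.78 in liver and −0.01 in forestomach.

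The order of tissues for Cd74 in vehicle mice was lung, forestomach and liver, and the difference of liver from forestomach (−0.78) did not pass the test, with an adjusted p of 0.12 in limma and 0.032 to 0.94 over the alternatives. It was called without forestomach mouse 2 (−1.10, adjusted p = 0.032 in limma), so 1 array decided it, and it was −0.05 in the sample channel alone. In high-dose mice Cd74 averaged 3.36 ± 0.45 (n = 4) in lung, 1.16 ± 0.37 (n = 4) in liver and 0.71 ± 0.66 (n = 3) in forestomach. The means in high-dose liver and forestomach overlap in their arrays.

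Next it was asked whether class II genes varied together among mice of the same dose, using each array's deviation from its dose mean, which the choice of the set did not use. In every tissue the permutations moved deviations freely between dose groups. Deviations are centred within a group, and their spread differs between groups (SD of Cd74 in liver 0.14 in D1 and 0.92 in D2). The permutation p-values may therefore be too small. In liver (n = 13) the deviations of H2-Aa followed those of Cd74 with Pearson's r = 0.96 and Spearman's rho = 0.94 (adjusted permutation p = 0.00014 and 0.00021). H2-Eb1 (r = 0.95), H2-Ab1 (0.93), H2-DMb1 (0.93) and H2-DMa (0.92) did likewise, with adjusted permutation p-values of 0.00014 to 0.00026 over the 21 pairs of member and tissue. H2-Oa (0.54, adjusted permutation p = 0.069), Ciita (0.52, 0.078) and H2-Ob (0.30, 0.32) did not pass. Mice 12 and 13, of the medium dose, lay farthest from the median, and without them r was 0.86 for H2-Aa, 0.82 for H2-Ab1, 0.81 for H2-Eb1, 0.71 for H2-DMb1 and 0.68 for H2-DMa. Among those that did not pass, it was then 0.70 for H2-Ob, 0.36 for H2-Oa and −0.24 for Ciita.

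Among 14266 genes in liver ranked by this r with Cd74, which had a median of 0.07, H2-Aa was at rank 1, H2-Eb1 6, H2-Ab1 10, H2-DMb1 12 and H2-DMa 17, and H2-Oa at 1890, Ciita at 2041 and H2-Ob at 4400. The genes outside the set most like Cd74 over these 13 livers were Prr5l, Irf8, Ccl5 and Nrros, at r = 0.96, and Imp3, at 0.95. Irf8 is a transcription factor of myeloid and dendritic cells, and Ccl5 is a chemokine.

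In lung (n = 15) 7 of 8 members varied with Cd74. H2-Oa (r = 0.87), H2-Ob (0.85), H2-DMa (0.83), Ciita (0.83) and H2-Aa (0.82) were the closest, and H2-Ab1 (0.52, adjusted permutation p = 0.069) did not pass. Among 14969 genes in lung, whose median r was 0.07, H2-Oa was at rank 53, so 52 genes outside the set followed Cd74 more closely than any member did. H2-Ob was at 96, H2-DMa at 135, Ciita at 143, H2-Aa at 174, H2-Eb1 at 484 and H2-DMb1 at 656, and 4.38% of genes were at least as close as H2-DMb1, the last member that passed. In liver the last such member, H2-DMa, had 0.119% of genes at least as close. Spearman's rho passed for 6 of the 8. Without mice 12 and 20 the r-values were 0.70, 0.67, 0.80, 0.60 and 0.67 for those 5 genes. The lung of mouse 12 is the array with skeletal muscle markers and with macrophage markers at 4.61, above every other lung, and the part of these in its class II values was not tested. The 5 genes outside the set most like Cd74 in lung were Sdc1 (0.97), Rab9 (0.95), Ppic (0.95), Prkd3 (0.93) and Iigp1 (0.93). In the 8 forestomachs of the cluster with high glandular markers in which a deviation could be formed, H2-Ab1 alone passed (r = 0.76, adjusted exact p = 0.035; rho = 0.71, adjusted exact p = 0.093), and r fell to 0.42 without mice 12 and 2, so it rests on those samples.

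**Figure D5:**
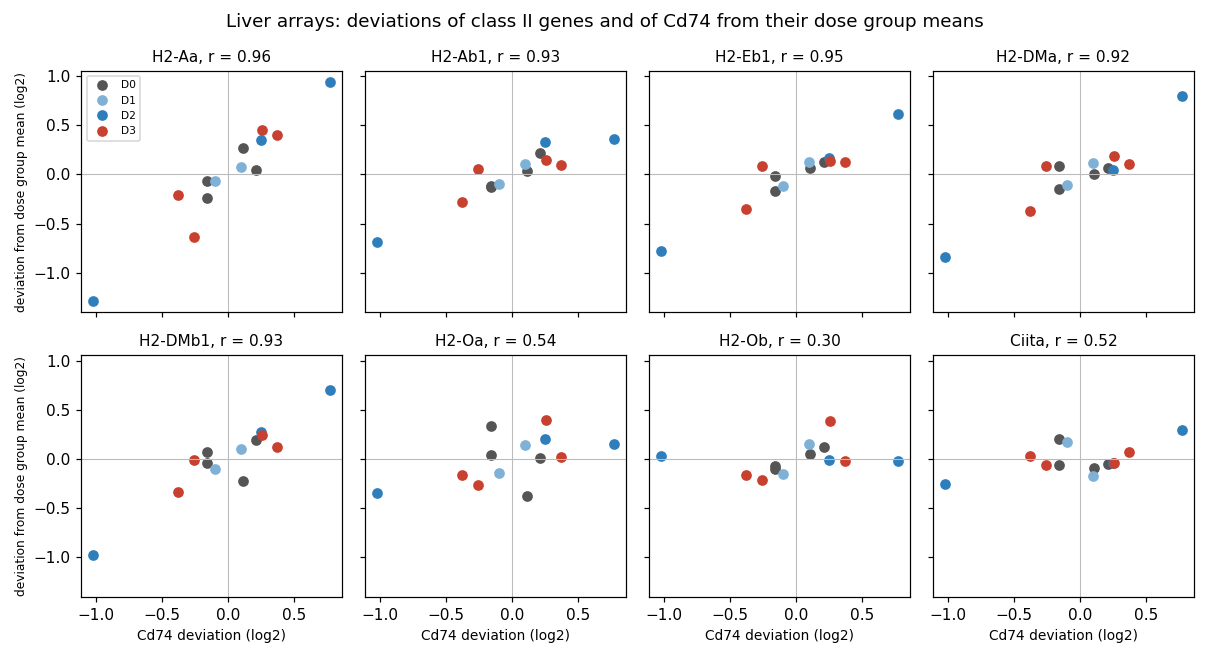
Deviation of each liver array from its dose mean for class II genes (y axis) against that of Cd74 (x axis), in log2 units, 1 point per array (n = 13). Points for H2-Aa follow Cd74 at r = 0.96, while points for Ciita scatter (r = 0.52, and −0.24 without mice 12 and 13).

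The rest of the pathway was read from lists of symbols in liver, in the contrast that chose the set, as a description. Of 5 tested factors of class II promoters, 3 were higher and 2 lower with a median of 0.02 (Nfyb at 0.19 and Rfxank at −0.06), and of 9 genes of antigen processing and turnover 5 were higher and 4 lower, with a median of 0.01. Ctss, the lysosomal protease that trims the invariant chain, was 0.58 higher, and Ctsl, another such protease, was at −0.20. MHC class I genes (11) had a median of 0.04, with Nlrc5, the class I transactivator, at 0.48 and Erap1, which trims peptides for class I, at 0.31. Genes of the interferon gamma response (12) had a median of 0.20 with 9 higher and 3 lower. Cxcl9, a chemokine induced by interferon gamma, was at 0.99 and Irf8 at 0.68. Of costimulatory genes, Cd86 was at 0.21 and Cd80 at 0.10. At the medium dose the interferon gamma list had a median of 0.26 and the class I list 0.03, and at the low dose 0.08 and −0.02, and limma called 0 genes of these lists at either dose. The class II region genes H2-Eb2 and H2-DMb2 were not above background, and H2-Ea had no probe.

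Bulk RNA cannot tell more cells of a type from more RNA per cell, so the markers of class II cells are given beside the liver values. Macrophage markers had a median change of 0.28 at the high dose (8 of 12 higher), and Cx3cr1, a receptor of monocytes and some macrophages, was at 1.74, while Cd5l, a marker of liver macrophages, was at −0.89. The mean level of the macrophage list was 2.81 to 3.27 in vehicle and 3.14 to 3.55 in high-dose livers, which overlap. Dendritic cell markers (8 tested of 9) had a median change of 0.34, with 6 higher and 2 lower, down to −0.19. Clec9a was at 0.56 and Itgax at 0.45, and the mean level of the list was −0.26 to −0.12 in vehicle and −0.18 to 0.29 in high-dose livers. Itgax was well above background on 0 of 4 vehicle and 4 of 4 high-dose arrays. B cell markers (6 tested of 9) had a median change of 0.42, with 5 higher and 1 lower, at −0.14. Fcmr was at 0.95 and Cd79b at 0.65, and the mean level of the list was −0.96 to −0.58 in vehicle and −0.66 to 0.20 in high-dose livers. Cd79a was above background on no liver array. Pan-leukocyte markers were higher for 4 of 4, with a median of 0.25 (Laptm5 at 0.48 and Coro1a at 0.42) and mean levels of −1.63 to −1.47 and −1.45 to −0.94, which do not overlap. T cell markers had a median of 0.00, with Cd2 at 0.43 and Cd3e at −0.24. Hepatocyte markers were lower for 5 of 5 with a median of −0.38 (Serpina1a at −0.41 and Apoa1 at −0.39) and mean levels of 7.87 to 8.08 and 7.40 to 7.83. Without mouse 17, whose array had muscle markers, the medians were 0.22 for B cell, 0.14 for macrophage, 0.13 for pan-leukocyte (3 of 4 higher) and 0.24 for dendritic cell markers and 0.13 for the interferon gamma response, while Cd74 was 1.85 higher. The part of these cell types in the class II values was not tested.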

How the data were processed

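RNA of lung, liver and forestomach was hybridised to Agilent two-colour arrays against a common reference, with no dye swap. The authors deposited scanner files that hold, per the file headers, median intensity per spot and channel on a linear scale, from Feature Extraction 10.7.3.1 (lung, forestomach) and 11.0.1.1 (liver). The authors also deposited a table of log2 ratios made by LOWESS, whose lung and forestomach columns followed the values computed here (r = 0.9971 to 0.9988 and 0.9945 to 0.9989) and whose 13 liver columns did not follow the arrays they are labelled for (r = −0.003 to 0.0003), so it was not used for results. The scanner log10 ratios, deposited in the same files, served as an alternative.

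The medians were not background-subtracted, which follows the published methods, and a loess curve was fitted per array with limma 3.58.1 (R 4.3.3). Control and outlier-flagged spots were left out. A tissue kept the probes whose red signal stood well above background on 3 or more (lung, forestomach) or 2 or more (liver) arrays, leaving 32697, 30460 and 25305 probes. Arrays had 15633 to 33382 probes well above background, and the number of arrays limits the precision. Of all probes, 47.4% received a RefSeq symbol. For a gene with several probes the brightest was used. All dose groups of a tissue shared 1 limma fit, tissues were compared in 1 fit over all arrays, and p-values are two-sided. Mice were the replicates. "At least" folds use sample signal after loess and Aquantile normalisation, with the dim group at the higher of its own and the lowest signal above background, and are open to dye bias. Correlations used 100000 permutations, or all of them for fewer than 10 arrays. Scripts were tested on simulated data. The members, lists and naming rules were chosen with earlier results of these data known. Genes outside the set are the 5 most like Cd74 per tissue and, per list, the 2 with the largest change of either sign in high-dose liver.

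The mouse numbers mark the same animal in different tissues. Deviations from group means correlated at a median r of 0.09 between lung and liver, 0.16 between lung and forestomach and 0.03 between liver and forestomach, and the correlation used for a mouse block was 0.059.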

Additional observations from a re-analysis of the deposited data

Results flagged for a closer look

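Over 57 combinations of a gene and a group of 4 or more arrays, 1 array stood apart from the rest of its group in 4 cases. Chance gives about 1 in 20 for a single combination. The same arrays recur in many combinations, so the cases are not independent. In high-dose liver mouse 16 had the lowest H2-Eb1 value, 3.13, against 3.56 to 3.63 in the others. In vehicle liver mouse 4 had the highest Ciita value, 0.28, with the other 3 between −0.01 and 0.03, and Ciita was near background there. In medium-dose forestomach mouse 12 had the lowest Cd74 value, −0.79, against 0.77 to 0.82 in the others. In vehicle forestomach mouse 1 had the highest H2-DMa value, 0.04, against −0.97 to −0.82.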

How the results depend on the processing

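In high-dose liver, which chose the set, the 1 member called (Cd74) became 0 with the mean over probes, the scanner log ratio, the slide as a block, the sample channel alone or without the array with muscle markers, 0 to 0 without any single array, and 5 with only the 2 groups compared, where 0.151% of probes were called. Nothing is read from these counts, since that contrast chose the set. In medium-dose liver the count was 0 to 5 without single arrays, 5 without mouse 12. The share of all probes called was not computed for fits without single arrays, so nothing is read from their counts. For the medium-dose effect, lung minus liver and liver minus forestomach gave 0 to 1 without single arrays and 3 (H2-Ab1, H2-Eb1 and H2-DMb1) without mouse 12 in all tissues. Liver minus forestomach in vehicle mice gave 2 (H2-DMa and H2-DMb1) with the scanner ratio and 0 to 1 without single arrays, where Cd74 was called without forestomach mouse 2. Covariation in forestomach passed for 0 members by Spearman's rho. Mice are paired across tissues, and the replicate block gave 9, 8 and 0 members called for lung minus liver, lung minus forestomach and liver minus forestomach and 0 for the differences of dose effects, so it changed no call count. With the scanner ratio, lung minus liver called 6 members, without H2-Aa, H2-Ab1 and H2-Eb1. The share of all probes called with that ratio was not computed, so nothing is read from its counts. The uncalled change of H2-Aa in high-dose lung, −0.19, turned to 0.13 with the scanner ratio and was −0.47 to 0.12 without single arrays, above 0 without D0 replicate 3 (0.03) or D3 replicate 20. No change of at least 0.5 turned its sign, and of 85 smaller ones 52 did under some alternative. The sample channel alone, the tissue contrast at the low and medium dose (7 members each), the glandular clusters, the arrays set aside for muscle markers and the fit without mouse 12 in any tissue were alternatives chosen after seeing the data. The causes were not tested.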
